A study of Mus musculus with 4 samples.

Results

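The genes described here encode proteins of the pancreatic islet that the immune system of diabetic mice and people is known to attack: the insulins (Ins1, Ins2), the glutamate decarboxylases (Gad1, Gad2), the tyrosine phosphatase-like proteins IA-2 and phogrin (Ptprn, Ptprn2), the zinc transporter ZnT8 (Slc30a8), the glucose-6-phosphatase relative IGRP (G6pc2), chromogranin A (Chga) and islet amyloid polypeptide (Iapp). Their RNA was measured in the lymph nodes that drain the pancreas. The 10 genes were chosen by name, and their probes were found by matching the transcript of every array probe that is not a control to a gene symbol. A probe was found for 9 of the 10 genes, of 17178 genes with a symbol and a probe, and these 9 genes had 12 of the array's 41174 probes. No probe was matched to Iapp. Ins2, Gad1 and Gad2 had 2 probes each.

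The samples came from 4 female mice of the NOD strain, an inbred line that develops autoimmune diabetes spontaneously, all aged 12 weeks and with no treatment named. From each mouse 2 nodes were taken whole: the gastric lymph node, which is the pancreatic node of the left side, and on the right side the pancreatico-duodenal one. Their amplified RNA was hybridised together to 1 array, the gastric node labelled with Cy5 (red) and the pancreatico-duodenal node with Cy3 (green). The 4 mice are the replicates. The dyes were never exchanged, so dye and node cannot be told apart.

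Beta cells make insulin in the islets, cut it from a precursor and store it with zinc in dense secretory granules. Chromogranin A, IA-2, phogrin, ZnT8 and islet amyloid polypeptide are carried in these granules or their membranes, IGRP lies in the endoplasmic reticulum, and glutamate decarboxylase makes the transmitter GABA in the cytosol. Lymph nodes collect these proteins from the pancreas through lymph and dendritic cells, and some stromal and haematopoietic cells of lymphoid organs are known to transcribe low levels of tissue antigens themselves, under regulators such as Aire and Deaf1. In NOD mice the pancreatic nodes are known as the site where islet-reactive T cells first meet their antigens. RNA of whole nodes mixes all these cells with any attached tissue, so fewer cells of a type and less RNA per cell cannot be told apart.

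Each array held 45018 spots. Between 67.1% and 71.4% of probes were well above background in the gastric channel and between 59.6% and 62.6% in the pancreatico-duodenal channel. The lymph node markers Cd79a, Cd3e, Ccl21a, Ccr7 and Cr2 were well above background on all arrays in both channels. Of 21319 genes and unnamed transcripts that passed the filter on dim probes, 7.54% were called at an adjusted p of 0.05 (limma, Benjamini-Hochberg), 3.09% higher and 4.45% lower in the gastric node. These calls needed nearly all the mice: without mouse 2, 3 or 4 the same fit called 0, 3 or 1 features in all, and without mouse 1 it called 844 higher and 1323 lower. The array of mouse 3 stood apart in exocrine pancreas enzymes, and the values are given beside insulin.

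Most islet autoantigen probes gave signals near the array's detection limit in both nodes. In the gastric channel 6 of the 12 probes were well above background on all 4 arrays, beside 64.9% of all probes: both Ins2 probes, both Gad1 probes, Ptprn and Chga. In the pancreatico-duodenal channel 3 of the 12 were, beside 58.0% of all probes: 1 Ins2 probe and both Gad1 probes. The other Ins2 probe was above background there in 2 mice, Ptprn in 2 mice and Chga in 1 mouse. Ins1 passed in both nodes of mouse 1 and in no other mouse. The remaining 5 probes, of Gad2 (both probes), Ptprn2, Slc30a8 and G6pc2, were not well above background on any array in either channel, beside 26.9% of all probes. The looser call of the scanner software, a signal positive and significant against the local background, gave 7 of 12 probes on all 4 arrays in each channel, Ins1 now among them. The share of all probes that passed this looser call was not counted, so the 7 cannot be called many or few. The 4 genes with a test, Ins2, Gad1, Ptprn and Chga, passed the filter on dim probes, which asked for detection on 3 or more arrays in 1 and the same channel. It passed 6 of the 12 probes, beside 67.0% of all probes. On all 4 arrays and in both channels 3 of the 12 probes were, beside 57.9% of all probes, and 3 (the 10-spot Ins2 probe, Ptprn and Chga) were above background on more gastric than pancreatico-duodenal arrays, beside 14.1%.

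**Figure D1:**
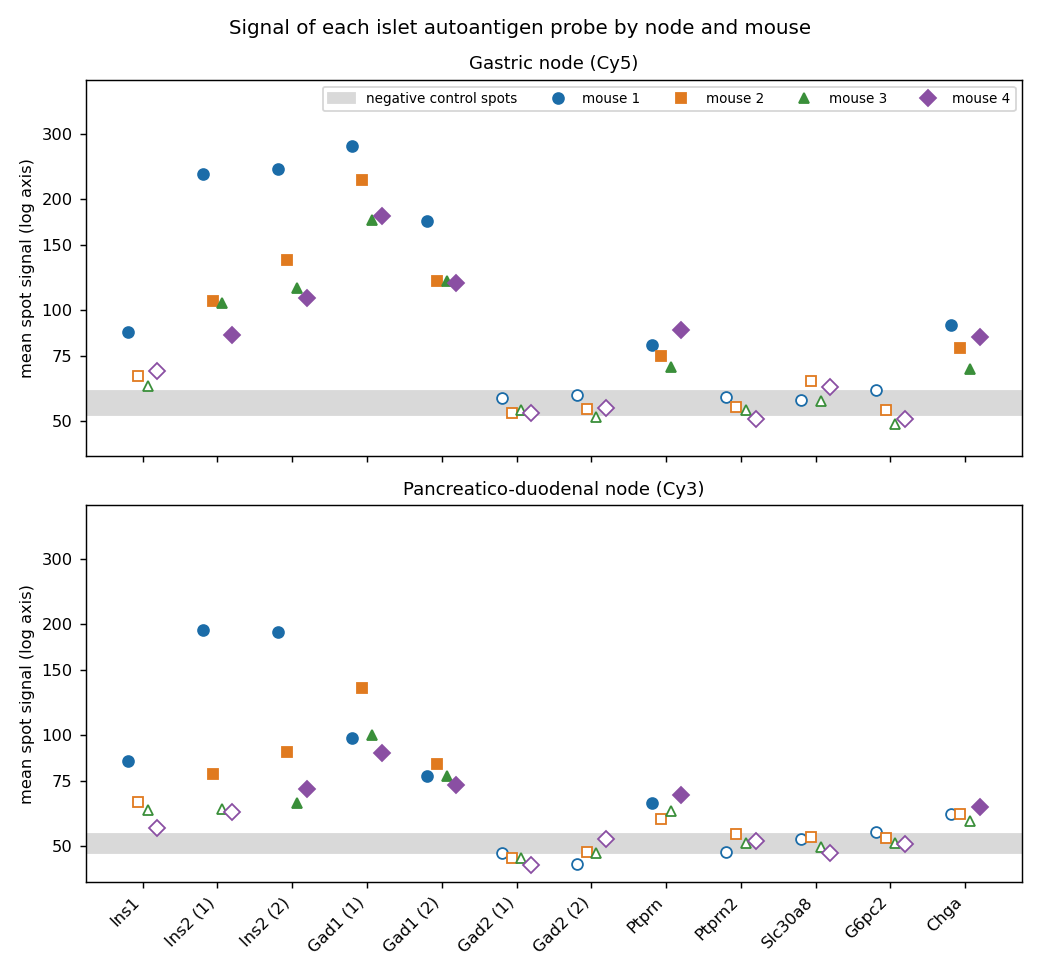
Mean spot signal of the 12 islet autoantigen probes in each of 4 mice (logarithmic vertical axis, scanner units before normalization), with the gastric node (Cy5) in the top panel and the pancreatico-duodenal node (Cy3) in the bottom panel. Filled points were well above background on that array, and the grey band runs from the lowest median to the highest 95th percentile of the negative control spots. Labels (1) and (2) mark the 10-spot and the single-spot probe of Ins2 and the brighter and the dimmer probe of Gad1. Ins2 and Gad1 lie above the band in the gastric panel in all mice, and Gad2, Ptprn2, Slc30a8 and G6pc2 have no filled point.

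Promoters are shown for Gad1, well above background on every array in both nodes, and for Ins1, above background in 1 mouse, as the pair of genes at the ends of the detected range for which RefSeq (build GRCm38.p6) gave the sequence. Each is the 250 bases before the transcript start, on the plus strand, read 5′ to 3′. Capitals mark CG dinucleotides and the E-box letters CATCTG or CAGATG, the sequence of both strands of 1 motif that is known to bind NeuroD1 in insulin promoters. The first lies at chr2:70561879-70562128 and the second at chr19:52264047-52264296.
Gad1: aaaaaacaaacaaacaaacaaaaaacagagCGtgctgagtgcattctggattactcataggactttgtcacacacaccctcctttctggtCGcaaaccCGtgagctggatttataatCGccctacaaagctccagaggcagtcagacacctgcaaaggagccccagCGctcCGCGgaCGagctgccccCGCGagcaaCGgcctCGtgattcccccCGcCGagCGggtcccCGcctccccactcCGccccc
Ins1: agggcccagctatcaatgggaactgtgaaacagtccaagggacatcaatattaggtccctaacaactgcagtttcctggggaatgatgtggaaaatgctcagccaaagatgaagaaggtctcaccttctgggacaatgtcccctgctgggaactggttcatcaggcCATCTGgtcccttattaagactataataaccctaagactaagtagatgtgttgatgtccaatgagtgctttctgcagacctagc
The Gad1 promoter holds 17 CG dinucleotides and no E-box of these letters, and the Ins1 promoter holds 0 and 1. Over 32841 promoters of this length the median is 6 CG dinucleotides, 7.86% hold none, and 14.4% hold the E-box letters. Promoters were found for 8 of the 10 genes and not for Ins2 and Slc30a8. Their CG count does not separate detected from undetected genes: Ptprn (10 and 12 at its 2 starts) and Chga (16) were detected, and Gad2 (13) and Ptprn2 (15) were not. G6pc2 has 3 and 5 at its 2 starts and Iapp has 3. The E-box letters were also found before Iapp, Gad2 and 1 of the G6pc2 starts. A match of letters describes these windows and is not a measured binding site.

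Ins2, the insulin gene that mice share with other mammals, was the insulin RNA detected in every mouse, and the difference between the nodes went in opposite directions in different mice. Its probe with 10 spots per array had gastric signals of 233, 106, 105 and 85.5 in mice 1 to 4, against a median of 51.8 to 54.2 over the 153 negative control spots of each array. Its pancreatico-duodenal signals were 193, 78.5, 63.1 and 62.1, against negative control medians of 48.0 to 49.3. Mouse 1 was the brightest in both nodes, well apart from the other 3, whose values in the same node lay close together. Signals of the 2 dyes are on different scales, so raw signals are compared between mice within a node, and nodes are compared after normalization.

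The log2 ratio of the gastric over the pancreatico-duodenal node for this 10-spot Ins2 probe was -0.65 in mouse 1, -0.05 in mouse 2, 0.34 in mouse 3 and -0.01 in mouse 4 (mean -0.09 ± 0.41, SD, n = 4). The single-spot Ins2 probe, which was brighter and carried the test, had gastric signals of 240, 136, 115 and 108 and pancreatico-duodenal signals of 191, 90.0, 65.5 and 71.4. Its log2 ratios were -0.63, -0.02, 0.43 and 0.05 (mean -0.04 ± 0.44, SD, n = 4). The ratio lay on both sides of 0, as it did for 58.9% of all tested features. Both probes placed mouse 1 below 0, mouse 3 above 0 and the other 2 mice near 0. The mean did not pass the test (limma adjusted p = 0.875; 95% interval -0.74 to 0.66), and an exact two-sided sign-flip permutation test gave p = 0.875, where 4 mice can give no less than 0.125. The 95% intervals, here and below, are ordinary t intervals from the SD of the 4 mice and do not come from the limma fit. Leaving out mouse 1 turned the mean to 0.15.

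The disagreement between mice was larger than the scatter of the spots. On the 10-spot probe the ratio of single spots ran from -0.79 to -0.52 in mouse 1 (10 spots), from -0.15 to 0.09 in mouse 2 (9 spots after flagged spots were left out), from 0.24 to 0.51 in mouse 3 (10 spots) and from -0.04 to 0.01 in mouse 4 (8 spots). No spot of mouse 1 overlapped any spot of another mouse, and the same held for mouse 3. The SD between mice was 0.41 and the mean SD between spots of an array 0.06, a ratio of 6.56. Among the 184 probes with 10 spots that passed the filter, the median SD was 0.13 between mice and 0.05 between spots. Of these probes 10 (5.43%) had a larger SD between mice than Ins2. A ratio of this size was not particular to Ins2. Probes of Actb (6.73), B2m (8.51), H2-Ab1 (8.80) and Apoe (11.5) had larger ones, while most of the 184 had smaller ones. Over all tested genes and transcripts, 4.02% had an SD over mice at least as large as that of the tested Ins2 probe. Spots of an array share its RNA and are not replicates of the node.

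**Figure D2:**
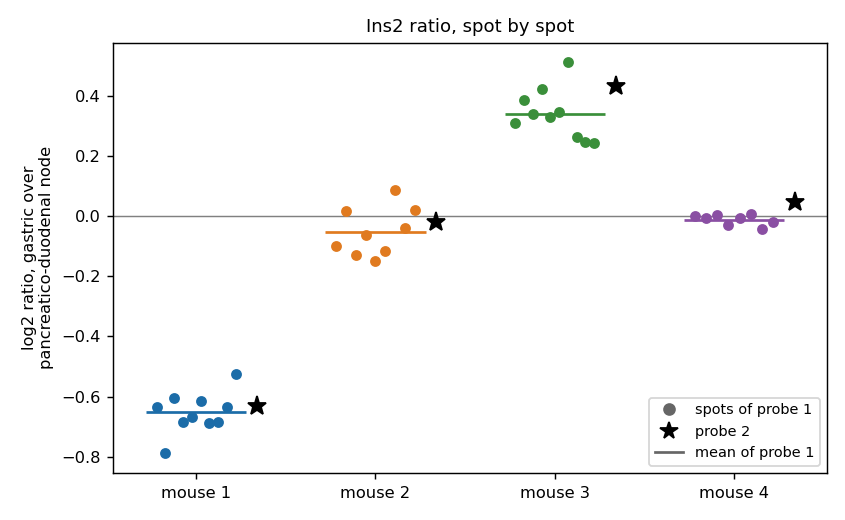
Log2 ratio of the gastric over the pancreatico-duodenal node for every used spot of the 10-spot Ins2 probe, by mouse. Each point is 1 spot and each bar the mean of that array. Spots of mouse 1 lie between -0.79 and -0.52 and those of mouse 3 between 0.24 and 0.51, with mice 2 and 4 near 0.

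After normalization of both channels to common scales, the level of the 10-spot Ins2 probe (log2) was 7.4, 6.59, 6.80 and 6.38 in the gastric nodes of mice 1 to 4 (mean 6.79 ± 0.44, SD, n = 4). In the pancreatico-duodenal nodes it was 8.05, 6.64, 6.46 and 6.39 (mean 6.89 ± 0.78, SD, n = 4). The order of the 8 nodes thus began with both nodes of mouse 1, the pancreatico-duodenal one first, and ended with both nodes of mouse 4, which differed by less than the spot scatter.

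Ins1, the rodent-specific insulin copy expressed almost only in beta cells, had signals of 86.8, 65.9, 62.2 and 68.1 in the gastric nodes and 84.9, 66.1, 62.7 and 56.2 in the pancreatico-duodenal nodes. Mouse 1 was again the brightest in both. In the other mice the signals lay above the 95th percentile of the negative control spots, which was 56.3 to 60.0 in the gastric channel and 52.3 to 54.0 in the pancreatico-duodenal channel. Its log2 ratio was -0.49, -0.31, -0.20 and -0.12 in mice 1 to 4, below 0 in 4 of 4 mice (mean -0.28 ± 0.16, SD, n = 4). The probe did not pass the filter and has no test in the fit. With no filter on dim probes the limma adjusted p was 0.0647, short of the threshold. In the same fit G6pc2, above background on no array, had a limma adjusted p of 0.0644. Of 3185 probes within 0.1 of its mean log2 intensity, 14.9% were also below 0 in all 4 mice, and 23 (0.722%) had a mean ratio as low. The size of the ratio depended on how background was taken off: the scanner software's own processed signals gave -1.62, -1.41, -1.18 and -0.67 (mean -1.22). With those signals the probes of Gad2, Ptprn2 and G6pc2, which were above background on no array, also averaged -0.75 to -0.70, and that of Slc30a8 0.01.

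The 2 insulin genes are close copies, and their transcripts can cross-hybridise. The probe sequences were not used here, so how much of either signal came from the other gene was not tested. The genes disagreed in mouse 3, where the Ins1 ratio was -0.20 and both Ins2 probes were above 0.

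Exocrine pancreas enzymes, made by the acinar tissue around the islets, were present in all 8 nodes. The 8 exocrine markers were well above background on every array. Their summed signal was 50164, 16616, 57219 and 9218 in the gastric nodes of mice 1 to 4 and 34031, 7191, 747776 and 2548 in the pancreatico-duodenal nodes. Among the 4 pancreatico-duodenal nodes that of mouse 3 carried the most exocrine signal by far, and its Ins2 signal of 63.1 was among the 2 lowest of the 4. Mice 1, 2 and 4 had the same order for exocrine sum and Ins2 in both nodes, mouse 1 highest and mouse 4 lowest. In mouse 3 all 31 tested exocrine genes were lower in the gastric node, with a median log2 ratio of -4.72, while Ins2 was at 0.34 and 0.43 and Ins1 at -0.20. In mouse 1, where both insulin genes were below 0, the exocrine median was -0.29 and 25 of 31 genes were below 0. The medians of mice 2 and 4 were 0.21 and 0.46. Cela3b, a pancreatic elastase, read -0.77, 0.10, -5.62 and 0.69 (mean -1.40 ± 2.88, SD, n = 4; limma adjusted p = 0.401), Prss2, a trypsinogen, averaged -0.90 ± 2.60 and Cpa1, a carboxypeptidase, -0.96 ± 2.00. Amy1, an amylase, reached -6.73 in mouse 3 (mean -1.46 ± 3.54). None of the 31 was called, beside 7.54% of all features. The part of exocrine tissue in the insulin signals was not tested.

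**Figure D3:**
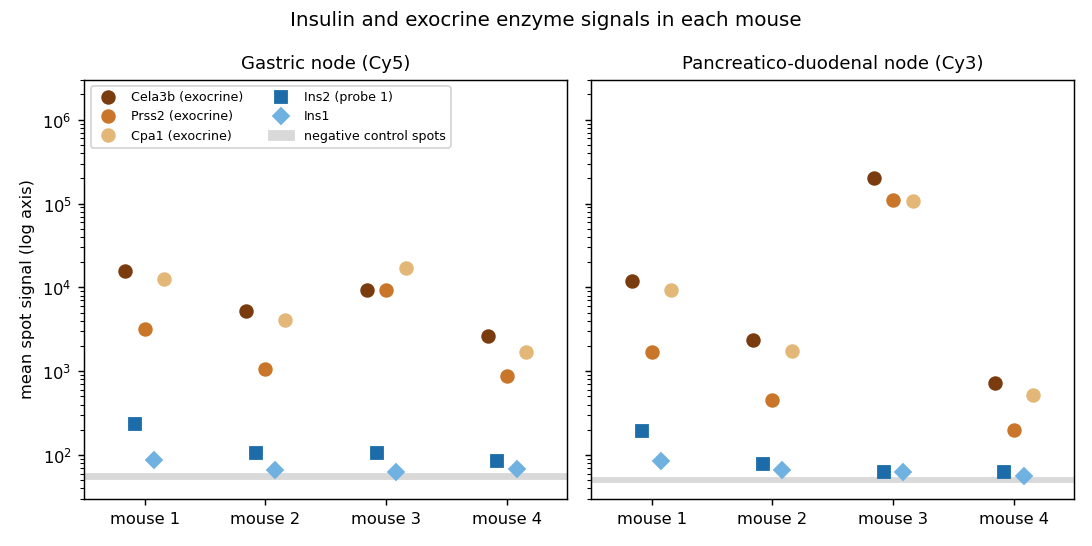
Mean spot signal (logarithmic axis, scanner units) of 3 exocrine enzyme genes and both insulin genes in the gastric node (left) and the pancreatico-duodenal node (right) of each mouse, with the grey band at the negative control spots. The enzymes of the pancreatico-duodenal node of mouse 3 stand far above those of the same node in the other mice, Cela3b at 200722, while Ins2 is highest in both nodes of mouse 1.

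Glucagon, pancreatic polypeptide and somatostatin were at or near background. Gcg, the alpha cell hormone glucagon, and Ppy, pancreatic polypeptide, were not well above background on any array, and Sst, somatostatin, and Pdx1, the beta cell transcription factor, were so on 1 gastric array each. Their summed signal was 249 to 276 in the gastric nodes and 220 to 230 in the pancreatico-duodenal nodes, with no mouse standing apart as mouse 1 did for Ins2. Ghrl (ghrelin) and Pyy (peptide YY) are hormones of the gut as well as the islet and are named here after their values were seen. Their brighter probes were well above background on all arrays in both channels. Neither gene was called, at 0.02 ± 0.18 (limma adjusted p = 0.874) and 0.15 ± 0.10 (adjusted p = 0.136). The second Ghrl probe was above background on 4 gastric and 0 pancreatico-duodenal arrays and read -0.08 ± 0.11. The second Pyy probe was above background on all arrays and read -0.0083 ± 0.15. Log2 ratios averaged -0.03 ± 0.07 for Gcg, -0.01 ± 0.05 for Sst and -0.03 ± 0.07 for Pdx1 (SD, n = 4).

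Gad1, which encodes the larger glutamate decarboxylase, was above background in all 8 nodes on both probes, and its ratio was above 0 in 4 of 4 mice on the brighter probe without passing the test. That probe had gastric signals of 278, 224, 174 and 180 and pancreatico-duodenal signals of 98.5, 134, 100.4 and 89.3. Mouse 1 was highest in the gastric node and mouse 2 in the pancreatico-duodenal node. The log2 ratios were 0.53, 0.02, 0.23 and 0.23 (mean 0.26 ± 0.21, SD, n = 4, a fold of 1.19; limma adjusted p = 0.118, limma unadjusted p = 0.0270; ordinary 95% t interval -0.08 to 0.59). The exact sign-flip permutation test gave p = 0.125, the smallest that 4 mice allow. The second Gad1 probe had gastric signals of 173, 119, 119 and 118, pancreatico-duodenal signals of 77.8, 83.5, 77.8 and 73.3, and log2 ratios of 0.30, -0.0038, 0.18 and 0.07 (mean 0.14 ± 0.13), so it was above 0 in 3 of 4 mice. Both probes had their largest ratio in mouse 1 and their smallest in mouse 2. Normalized levels (log2) of the brighter probe were 7.45 ± 0.19 in the gastric and 7.19 ± 0.18 in the pancreatico-duodenal nodes, overlapping between mice.

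Neurons also make GABA, and the 6 neuron and Schwann cell markers summed to 978 to 1163 in the gastric nodes and 560 to 617 in the pancreatico-duodenal nodes before normalization. Of these, 2 were above background on every array and Nefl, a neurofilament, on none. The highest gastric sum was that of mouse 1, as for Gad1. The part of nerve in the Gad1 signal was not tested.

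Gad2, which encodes the smaller isoform, the classical autoantibody target, was not well above background on either probe. Gastric signals were 52.4 to 57.5 and 51.1 to 58.8, and pancreatico-duodenal signals 44.4 to 48.1 and 44.8 to 52.4, near the negative control medians. The log2 ratios of the probes averaged 0.09 ± 0.04 and -0.06 ± 0.14 (SD, n = 4).

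Other genes of GABA metabolism had 12 of 13 members tested, with 1 called lower in the gastric node and none higher, beside 7.54% of all features. Their median log2 ratio was -0.03, against 0.03 over all features. The called gene was Slc6a13, the GABA and taurine transporter GAT2, at -0.74 ± 0.22 (SD, n = 4; limma adjusted p = 0.0250), and a second probe read -0.59 ± 0.13. With a mouse left out the ratio stayed between -0.83 and -0.67. The call was lost without mouse 2, 3 or 4, as were nearly all calls on the arrays.

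Ptprn, which encodes the granule membrane protein IA-2, had gastric signals of 80.2, 74.9, 70 and 88.3 and pancreatico-duodenal signals of 65.6, 59.2, 62.3 and 68.8. Mouse 4 was highest in both nodes. The log2 ratios were -0.18, 0.06, -0.16 and -0.15 (mean -0.11 ± 0.11, SD, n = 4; limma adjusted p = 0.252; 95% interval -0.29 to 0.07), with mouse 2 alone above 0. Its relative Ptprn2, encoding phogrin, was at background (gastric signals 50.5 to 58.1, pancreatico-duodenal signals 48.4 to 54.0, log2 ratio -0.12 ± 0.14).

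Chga, the source of chromogranin A peptides that NOD T cells recognise, had gastric signals of 91.1, 78.6, 69.2 and 84.3 and pancreatico-duodenal signals of 61.1, 61.2, 58.4 and 64.0. The log2 ratios were 0.09, 0.02, 0.07 and -0.04 (mean 0.04 ± 0.06, SD, n = 4; limma adjusted p = 0.602; 95% interval -0.05 to 0.13). The nodes were within the spread between mice. Slc30a8, which loads zinc into insulin granules, was at background (gastric signals 56.4 to 63.9, pancreatico-duodenal signals 48.1 to 53.0, log2 ratio 0.0048 ± 0.11). G6pc2, whose product IGRP is a target of cytotoxic T cells in NOD mice, was also not well above background on any array, with gastric signals of 48.9 to 60.6 and pancreatico-duodenal signals of 50.7 to 54.7. Its log2 ratios were -0.14, -0.16, -0.14 and -0.19 (-0.16 ± 0.02), closely alike but formed from background signal, and 2.29% of the probes that were above background on no array had a mean as low.

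**Figure D4:**
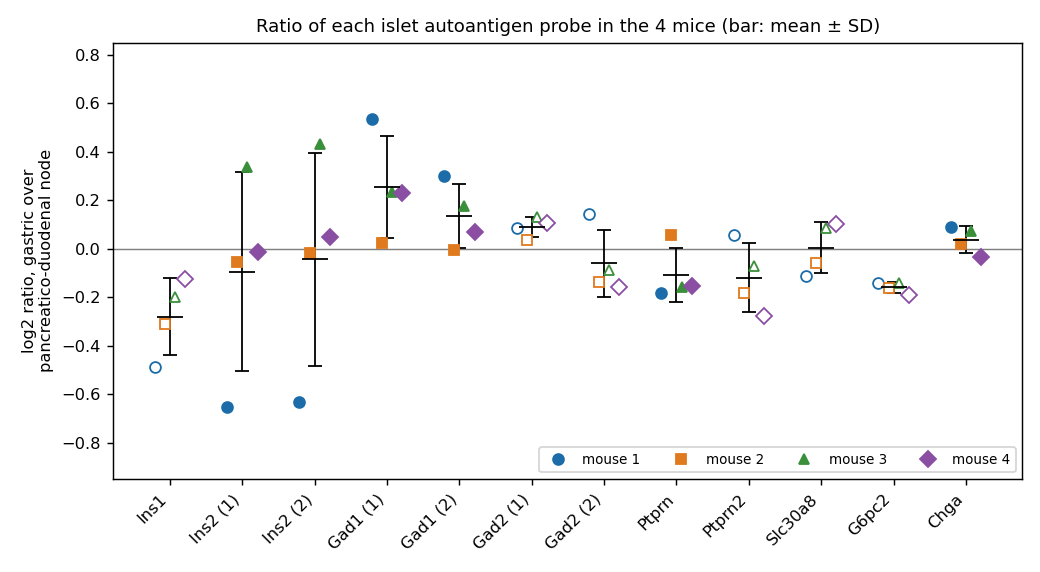
Log2 ratio of the gastric over the pancreatico-duodenal node for the 12 islet autoantigen probes, with 1 point per mouse and the mean ± SD over 4 mice. Filled symbols passed the filter on dim probes and open symbols did not. Ins2 spreads from -0.65 to 0.43 around 0, Ins1 lies below 0 and the brighter Gad1 probe above 0 in all mice.

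Of the 4 tested genes, 0 were called, beside 7.54% of all features (limma, adjusted p of 0.05). An unadjusted p under 0.05 (limma) was found for 1 of them, Gad1. Of all 21319 features, 3643 higher and 2893 lower in the gastric node had such a p. One choice of processing changed the calls of the 4 genes. When each array was only centred on its median, without loess, the typical ratio over all features moved from 0.03 to 0.32, 12821 features were called higher and 2065 lower, and 3 of the 4 genes were called. These were Gad1 at 0.41 (limma adjusted p = 0.00687), Ptprn at -0.33 (adjusted p = 0.00354) and Chga at -0.17 (adjusted p = 0.0240). Against that shift of 0.32, Gad1 lay a little above the typical feature, and Ptprn and Chga lay below it. The member probes above background on no array also lay below it, so 0.32 is not the level of dim probes. With this setting Gad2 averaged -0.31 and -0.47 on its 2 probes, Slc30a8 -0.37, Ptprn2 -0.51 and G6pc2 -0.56.

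Genes that build an islet cell or its granules were described beside these. Of 22 islet hormone and endocrine identity genes, 9 were tested and none was called, beside 7.54% of all features (median 0.02). On no array were 8 of the 22 above background by their brightest probe, beside 26.9% of all single probes. The share over all genes by their brightest probe was not counted. Among the brightest tested was Hhex, a transcription factor of delta cells that B cells also express, at 0.32 ± 0.23 (limma adjusted p = 0.0869). A second Hhex probe, above background on all arrays in both channels, read -0.0089 ± 0.14, so the Hhex probes disagreed. Of 16 beta cell glucose sensing and secretion genes, 9 were tested and none was called, beside the same 7.54% of all features (median -0.02). The brightest were Slc30a5, a zinc transporter, at 0.20 ± 0.06 (adjusted p = 0.0569) and Hadh, a fatty acid oxidation enzyme, at -0.17 ± 0.05 (adjusted p = 0.0705).

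Of 19 secretory granule and prohormone processing genes, 11 were tested, 1 was called lower (9.09%, beside 4.45% of all features) and none higher (median 0.0080). The called gene was Vamp2, a vesicle fusion protein. Pcsk2, a prohormone convertase that helps cut proinsulin, read 0.01 ± 0.08 (limma adjusted p = 0.895). Cpe, the carboxypeptidase that trims insulin after the convertases and is itself a reported autoantigen, read 0.02, -0.95, -0.88 and -1.56 (mean -0.84 ± 0.65; adjusted p = 0.0836). Chgb, a granin, and Pcsk1, the other convertase, did not pass the filter, with ratios of 0.17 ± 0.27 and -0.12 ± 0.15.

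Of 16 other reported islet autoantigens, 13 were tested, and 3 were called lower and none higher in the gastric node, beside 4.45% of all features called lower. The median was -0.19. The called genes were Tspan7 at -0.64 ± 0.24 (SD, n = 4; limma adjusted p = 0.0307), a tetraspanin also made by neurons and vessel cells, Ppp1r1a at -0.54 ± 0.18 (adjusted p = 0.0295), an inhibitor of protein phosphatase 1, and Vamp2 at -0.47 ± 0.07 (adjusted p = 0.0223). The ratios of Tspan7 were -0.28, -0.70, -0.83 and -0.74 in mice 1 to 4. Further probes gave -0.21 for Ppp1r1a and 0.02 and -0.07 for Vamp2, so the Vamp2 probes disagreed. With a mouse left out the ratios stayed between -0.76 and -0.58 for Tspan7, -0.61 and -0.47 for Ppp1r1a and -0.50 and -0.45 for Vamp2, and the 3 calls were lost without mouse 2, 3 or 4, as were nearly all calls on the arrays. They were also lost with median centring, where Tspan7 was at -0.07, Ppp1r1a at -0.15 and Vamp2 at 0.0087.

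Of 37 relatives of the autoantigen families, 28 were tested and none was called, beside 7.54% of all features (median -0.01, against 0.03 over all features). The same background applies to the 3 lists that follow. The brightest were the receptor phosphatases Ptprc, the leukocyte antigen CD45, at 0.17 ± 0.61 and Ptprs at -0.06 ± 0.19. Of 19 neuron and Schwann cell genes, 11 were tested and none was called (median 0.05), with Mbp, a myelin protein, at 0.27 ± 0.14 (limma adjusted p = 0.0583) and Tubb3, a neuronal tubulin, at 0.27 ± 0.16 (adjusted p = 0.0691). All 13 lymph node identity genes were tested and none was called (median 0.07). Within this list mouse 1 stood apart for B cell, follicular and leukocyte genes named after their values were seen. The follicular receptor gene Cr2 read 1.04 there and 0.09 to 0.37 in the other mice, Ptprc 1.04 and -0.37 to 0.04, the follicle chemokine Cxcl13 1.00 and -0.10 to 0.06, and the B cell gene Ms4a1 0.90 and 0.11 to 0.21. Mouse 1 also had the most extreme Ins2 and Gad1 ratios, and the part of these cells in them was not tested. The brightest genes of the list were the chemokines Ccl19 at 0.41 ± 0.33 (adjusted p = 0.0996) and Ccl21a at -0.0037 ± 0.19.

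Of 4 regulators of peripheral self-antigen expression, 3 were tested and none was called (median 0.02). Aire, which drives tissue antigens in thymus and in rare node cells, read -0.12 ± 0.27 (limma adjusted p = 0.469) and Deaf1, a regulator in node stroma, 0.04 ± 0.10 (adjusted p = 0.673). A second Deaf1 probe read -0.44 ± 0.80, with -1.63 in mouse 3, the mouse with the high exocrine signal, so the Deaf1 probes disagreed.

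The genes whose ratios over the 4 mice lay closest to those of Ins2 were E2f8, S1pr2, H1f3, Mxd3 and Pask, at root mean square differences of 0.118 to 0.131 (log2) among 13194 named genes. Among the closest to Ins1 were Meis3, Smpd2, Lrrc61 and Ubxn8, at 0.031 to 0.037 among 13195. With 4 mice such likeness is a description only.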

How the data were processed

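RNA of both pancreatic lymph nodes of 4 mice was hybridised to 4 dual-colour arrays on 1 slide, scanned together, per the file headers, so slides and scans cannot be compared. The deposited scanner files hold the mean and background intensity of 45018 spots in both channels and flags for detection and outliers, made with Agilent Feature Extraction 10.2.1.3 on an annotation of build mm9, per the file headers. They also hold processed intensity and a log10 ratio of Cy5 over Cy3, per the file headers. In the authors' deposited table of the series, log2 values equalled the log2 ratio of the processed signals to within 5.11e-05, which settled scale and direction. The medians of that table's arrays were -0.15, -0.06, -0.03 and -0.03.

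Background was taken off by normexp (offset 50), followed by loess in limma 3.58.1 (R 4.3.3; files were read by data.table, version 1.17.8), with control and outlier spots at weight 0 and outlier spots left out of probe means. A probe was well above background where more than 0.5 of its used spots were. A probe was kept when 3 or more of the 4 arrays detected it in 1 and the same channel. Symbols came from transcript accessions through RefSeq (GRCm38.p6, for names and promoter sequences), for 24844 probes. The brightest kept probe stood for a gene, and 21319 features were tested with lmFit and eBayes against 0 and adjusted by Benjamini-Hochberg over all of them (threshold 0.05). Normalized levels per node came from loess followed by Aquantile. Since both nodes of a mouse share an array, the ratio is paired by mouse. The script was tested on simulated data. The number of arrays limits the precision.

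The genes and lists were chosen with earlier results of these data known. From each list the text names called genes, up to 4 by size, or the 2 brightest where none was called, and 12 genes always; the 5 genes most like each insulin gene were taken by root mean square difference. Some genes that this rule names are not reported here. The alternatives were other background corrections, normexp offsets, normalizations, filters, probe rules, variance models, the series table, both channels unpaired, and each mouse left out. Background from negative control spots was added after seeing the data.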

Additional observations from a re-analysis of the deposited data

Results flagged for a closer look

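Values standing apart from the other 3 mice were sought in 73 groups of 4, and 9 were found. Chance gives about 1 in 20. Mouse 1 had 4 of them as signals before normalization: the 10-spot Ins2 probe at 233 in the gastric node and 193 in the pancreatico-duodenal node, the second Gad1 probe at 173 and the first Gad2 probe at 57.5 in the gastric node, the last not above background. Mouse 1 also stood apart in the median log2 ratio of the lymph node identity list, at -0.063, although Cr2, Ptprc, Cxcl13 and Ms4a1 of that list read 0.90 to 1.04 there, and in the ratio of Sst, at -0.080. Mouse 2 stood apart in the log2 ratio of Ptprn, at 0.058 where the others were below 0. Mouse 3 stood apart in the median of the exocrine list, at -4.72, and in Amy1, at -6.73.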

How the results depend on the processing

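No islet autoantigen gene was called under any alternative except median centring, where 3 of the 4 were. That setting called 12821 features higher and 2065 lower of all 21319, so the 3 calls are not particular to these genes. At an unadjusted p under 0.05 (limma) there was 1 of 4 with the settings reported, beside 3643 features higher and 2893 lower of 21319. Under the alternatives there were 0 to 3 of these genes. The mean ratio of Ins2 changed sign to 0.051 with the scanner software's processed signals and with the series table, to 0.0015 with a normexp offset of 10 and to 0.15 without mouse 1 (-0.20 to 0.15 over the mice left out). That of Chga changed to -0.031 with the processed signals and with the series table and to -0.17 with median centring, where Vamp2 changed to 0.0087. Gad1 stayed above 0 and Ptprn below 0 under all alternatives run, with limma adjusted p from 0.00687 to 0.282 and from 0.00354 to 0.505. Median centring moved the ratio of Ins1 to -0.51 and an offset of 10 to -0.56, with none tested. Probes above background on no array moved with the same settings, in this order. Ptprn2 read -0.51 and -0.33, G6pc2 -0.56 and -0.44, and Slc30a8 -0.37 and 0.02. The first Gad2 probe read -0.31 and 0.25 and the second -0.47 and -0.18.

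Features called lower numbered 949, and 583 with the processed signals, 572 with the series table, 2065 with median centring and 568 with the channels unpaired (no replicate block). Features called higher numbered 659, and 12821 with median centring, 1078 with the arrays scaled to a common spread and 335 unpaired. With each mouse left out in turn, 0 to 1323 were called lower and 0 to 844 higher: the lower counts were 0 without mouse 2, 3 without mouse 3, 1 without mouse 4 and 1323 without mouse 1. Detection on all pancreatico-duodenal arrays rose from 3 to 7 islet autoantigen probes with the looser call, for which the share of all probes was not counted. Ppp1r1a lost its call unpaired (adjusted p 0.0769) and Vamp2 with the mean of probes (0.0779). The causes were not tested. The list of other autoantigens had 0 to 4 members called. Most of these probes lay close to background, which limits all their ratios, and the dyes were not exchanged.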
